A study of Mus musculus with 8 samples.

Results

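The genes described here encode EHMT2, its complex partners and other factors that write or direct H3K9 or DNA methylation. They were the 10 genes Ehmt1, Ehmt2, Wiz, Zfp644, Setdb1, Suv39h1, Suv39h2, Trim28, Dnmt1 and Uhrf1, taken by name from the 21938 protein-coding genes of the GENCODE M21 annotation of mm10. Peaks were counted in a window of the gene body and 20 kb on either side, and peaks with the summit within 1 kb of an annotated transcript start of the gene were counted apart as promoter peaks. The data were lists of ChIP-seq peaks from EHMT2-dTAG-mcherry mESCs (mouse embryonic stem cells, BL6/129 hybrid), in which endogenous EHMT2 carries a degron and an HA tag. All cells were grown in serum with LIF and carried the tagged protein, and the methods of the study name 2 clones for the DMSO experiment. HA ChIP with the antibody C29F4 was done in cells treated with DMSO for 24 h (2 ChIP samples merged into 1 list). HA ChIP with the antibody ab9110 was done after 24 h of DMSO or of dTAG, the compound that recruits the degron-tagged protein for degradation (1 list each), and sonicated input chromatin from the dTAG-treated cells gave a further list. No condition had a replicate list, so no test between DMSO and dTAG was possible, and every interval given here covers counting error only. Peak lists hold no expression values, so neither the loss of EHMT2 protein nor the cell type could be checked in them. The paper reports that dTAG treatment of the same length removed nearly all EHMT2 protein by Western blot. Its flow cytometry found total depletion at an earlier time. The HA-tagged target was thus almost absent, by the paper, from cells treated like those of the dTAG list. Whether the ab9110 peaks called after dTAG reflect EHMT2 was not tested.

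EHMT2 (G9a) and EHMT1 (GLP) form a heterodimer that methylates H3K9, mainly to the dimethylated state, and the zinc finger proteins WIZ and ZFP644 bind the complex and bring it to chromatin. SETDB1, SUV39H1 and SUV39H2 deposit H3K9me3. TRIM28 is the corepressor that links KRAB zinc finger proteins to SETDB1, above all at endogenous retroviruses in mESCs. DNMT1 copies DNA methylation to the new strand after replication, and UHRF1 guides it there by binding hemimethylated DNA.

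The C29F4 list held 11010 peaks, the ab9110 DMSO list 40816, the ab9110 dTAG list 16324 and the input list 2050. The lowest background among the peaks, taken here as mean fragment coverage, was 3.64, 2.11, 1.23 and 0.978 in the same order. At that background a peak needed at least 12, 9, 7 and 8 fragments at its summit to be listed, and more where the local background was higher. By this measure, the dTAG library had 58.2% of the coverage of the DMSO library.

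After dTAG, 7 of the 10 genes had a promoter peak with ab9110, and in DMSO 5 had one. The DMSO calls were Ehmt1, Wiz, Setdb1, Trim28 and Dnmt1 (50% of the genes, exact 95% binomial interval 18.7 to 81.3%), against 25.1% of all protein-coding genes. The dTAG calls were Ehmt1, Ehmt2, Wiz, Zfp644, Suv39h2, Dnmt1 and Uhrf1 (70%, 34.8 to 93.3%), against 31.9% of all protein-coding genes. Ehmt1, Wiz and Dnmt1 were called in both lists (30%, 6.67 to 65.2%), a class that held 16.7% of all protein-coding genes. Ehmt2, Zfp644, Suv39h2 and Uhrf1 were called after dTAG and not in DMSO (40%, 12.2 to 73.8%), against 15.2% of all genes, and Setdb1 and Trim28 in DMSO and not after dTAG (20%, 2.52 to 55.6%), against 8.38%. Suv39h1 had no promoter peak in any list. The interval of the members lay above the share of all genes for the dTAG list, by a small margin, and included that share for the DMSO list and for the 3 classes. The dTAG count of 7 fell to 6 with q under 0.001 and to 5 with the 5′ end of each gene alone. The share of all genes was not recomputed at these settings. The members have between 4 (Suv39h2) and 17 (Ehmt1) annotated starts, and more starts give more chances of a call. The share of all genes was not matched for the number of starts. Of the 10 genes, 9 have GC-rich promoters, taking the most GC-rich promoter of each. Among protein-coding genes at or above the median promoter GC, 48.8% were called after dTAG, which lies inside the interval of the members.

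No promoter of the 10 genes was called with C29F4 or in the input. A count of 0 of 10 genes allows a share of up to 30.8% (exact 95% binomial interval). Among all protein-coding genes, the C29F4 list called 2.34% of promoters and the input list 1.25%, so a count of 0 among 10 genes is near the background of both lists.

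**Figure D1:**
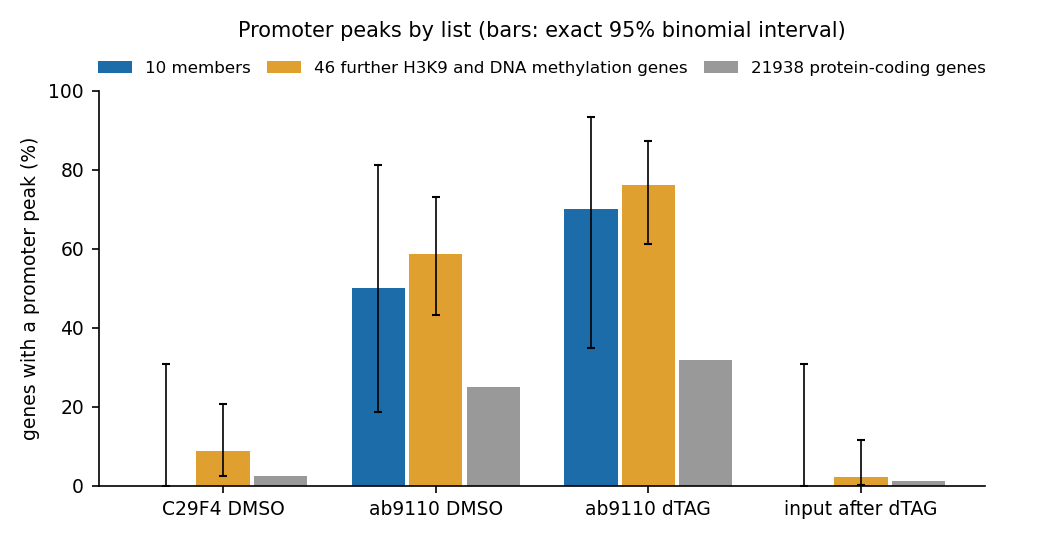
Share of genes with a promoter peak (%) in each of the 4 lists, for the 10 genes, 46 further H3K9 and DNA methylation genes and all 21938 protein-coding genes; bars on the first 2 groups are exact 95% binomial intervals. The 10 genes reached 50% in ab9110 DMSO and 70% after dTAG, and 0% with C29F4 and in the input.

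The sequences just upstream of the 3 promoters called in both ab9110 lists are shown because the peaks sat on them or beside them. That of Ehmt2, called after dTAG alone, is added because Ehmt2 encodes the tagged target, and it was picked after its values were seen. Each runs 5′ to 3′ on the strand of the gene and ends at the base before the outermost annotated start within 1 kb of the summit (GRCm38, read from RefSeq). Capitals mark letters of the motifs searched below, on either strand. The Ehmt1 stretch is chr2:24919615-24919864 (minus strand), that of Wiz chr17:32389440-32389689 (minus), that of Dnmt1 chr9:20952980-20953229 (minus) and that of Ehmt2 chr17:34898219-34898468 (plus), whose first bases lie in a noncoding exon of the divergent gene C2.
Ehmt1: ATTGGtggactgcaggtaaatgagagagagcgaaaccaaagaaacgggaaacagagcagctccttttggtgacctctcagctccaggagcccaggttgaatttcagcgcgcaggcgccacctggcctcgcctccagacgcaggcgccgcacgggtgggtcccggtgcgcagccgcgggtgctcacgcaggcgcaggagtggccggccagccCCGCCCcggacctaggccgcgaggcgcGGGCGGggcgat
Wiz: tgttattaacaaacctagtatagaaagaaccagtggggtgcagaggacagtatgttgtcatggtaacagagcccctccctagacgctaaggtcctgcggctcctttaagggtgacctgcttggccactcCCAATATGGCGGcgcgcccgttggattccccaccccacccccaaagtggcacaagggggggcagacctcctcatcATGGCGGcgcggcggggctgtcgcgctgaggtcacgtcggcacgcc
Dnmt1: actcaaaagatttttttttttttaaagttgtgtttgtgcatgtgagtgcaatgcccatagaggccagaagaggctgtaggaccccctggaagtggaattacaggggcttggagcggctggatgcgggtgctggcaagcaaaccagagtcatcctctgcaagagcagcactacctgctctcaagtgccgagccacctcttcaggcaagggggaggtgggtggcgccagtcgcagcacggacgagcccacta
Ehmt2: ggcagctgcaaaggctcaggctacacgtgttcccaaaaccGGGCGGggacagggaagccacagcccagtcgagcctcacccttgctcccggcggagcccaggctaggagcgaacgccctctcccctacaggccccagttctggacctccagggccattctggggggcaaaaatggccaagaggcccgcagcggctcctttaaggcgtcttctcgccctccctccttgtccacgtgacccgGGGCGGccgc
The stretch upstream of Ehmt1 was 68% GC with 25 CpGs and held 2 GC boxes, and 1 CCAAT box on the opposite strand (ATTGG). That of Ehmt2 was 67.2% GC with 16 CpGs and also held 2 GC boxes. The Wiz stretch was 60.4% GC with 15 CpGs and held 2 copies of the YY1 letters and 1 CCAAT box. The Dnmt1 stretch was 54.8% GC with 7 CpGs, 41.6% soft-masked (repeat) bases and no motif match. It lies upstream of the outermost start and holds neither summit, with the DMSO summit 375 bp inside that start, and the Dnmt1 peak itself was 66.2% GC in DMSO and 60% after dTAG.

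Within the EHMT complex, Ehmt1 had a promoter peak in both lists, and the dTAG one had the highest fold and the most fragments among the dTAG promoter peaks of the 10 genes. In DMSO, promoter peaks of Wiz, Setdb1 and Trim28 had a higher fold and that of Dnmt1 more fragments. In DMSO the peak was chr2:24919543-24919934, with the summit 46 bp upstream of the start, a fold enrichment over local background of 3.13 and 22 fragments. After dTAG the peak was chr2:24919002-24919924, with the summit 114 bp upstream of the same start, a fold of 7.32 and 28 fragments. The DMSO fold ranked at percentile 35.4 of its list and the dTAG fold at percentile 98.1. Here and below, percentiles rank a peak within its own list, and since the lists differ in size and calling threshold they give no comparison between treatments. These were the only peaks in the 170 kb window of Ehmt1 in any list, although the gene has 17 annotated starts.

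Ehmt2 had a promoter peak after dTAG and none in DMSO. The dTAG peak, chr17:34898026-34898815, had its summit 109 bp upstream of the Ehmt2 start and 95 bp from a start of C2, a complement gene transcribed the other way, so the peak cannot be given to either gene alone. Its fold was 4.88 with 14 fragments (percentile 83.8). The DMSO peak with the highest fold in the window, chr17:34890273-34890485, lay 8059 bp upstream of the start in an intron of C2 and had a fold of 2.79 with 12 fragments. The dTAG peak with the highest fold, chr17:34894079-34894432 (5.73, 23 fragments), lay 271 bp from a start of Zbtb12 and is a promoter peak of that gene. The peak called in both lists within Ehmt2 was intronic. It was chr17:34912013-34912266 in DMSO (fold 2.64, 18 fragments) and chr17:34911983-34912417 after dTAG (3.54, 13 fragments).

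Wiz had the most promoter peaks of its own, 2 in DMSO and 4 after dTAG, at different starts. At the 5′ end of the gene, the DMSO peak chr17:32388998-32389691 had a fold of 2.89 with 21 fragments, and the dTAG peak chr17:32388832-32389810 a fold of 5.91 with 20 fragments. The DMSO fold stood at percentile 14.9 of its list and the dTAG fold at percentile 93.3 of its own. A nearby dTAG peak, chr17:32387954-32388660 (fold 3.78, 10 fragments), lay 341 bp upstream of another coding start, and a further one, chr17:32363769-32364613 (2.9, 13 fragments), lay in the 5′ UTR of a shorter coding transcript. The remaining promoter peaks sat at the start of an internal transcript with a retained intron. They were chr17:32369392-32370223 in DMSO (4.21, 15 fragments), the highest DMSO fold in the window, and chr17:32369369-32369675 after dTAG (3.67, 8 fragments). That site was a repeat, with 96.9% of the DMSO peak and 84% of the dTAG peak soft-masked. The position of reads among near-identical repeat copies is uncertain, since the authors' alignment placed each multimapping read at 1 location.

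Zfp644 also had promoter peaks after dTAG alone. The stronger, chr5:106696070-106696982, had its summit 29 bp upstream of a coding start, with a fold of 6.03 and 22 fragments (percentile 94). A second, chr5:106695694-106695959, lay 104 bp inside another coding start, with a fold of 3.82 and 15 fragments. Both also lie within 1 kb of starts of Gm28039, which overlaps Zfp644. In DMSO the window held 1 peak, chr5:106654989-106655374 (4.24, 13 fragments), in an intron of Zfp644 and 537 bp from a start of Gm43421. So in the complex, the 4 genes had promoter peaks after dTAG and 2 of them in DMSO. The shares of all protein-coding genes were 31.9% after dTAG and 25.1% in DMSO. The dTAG peak of Ehmt2 also lies at a start of C2, and those of Zfp644 at starts of Gm28039. These peaks cannot be given to the complex alone, and no interval was computed for the 4 genes.

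**Figure D2:**
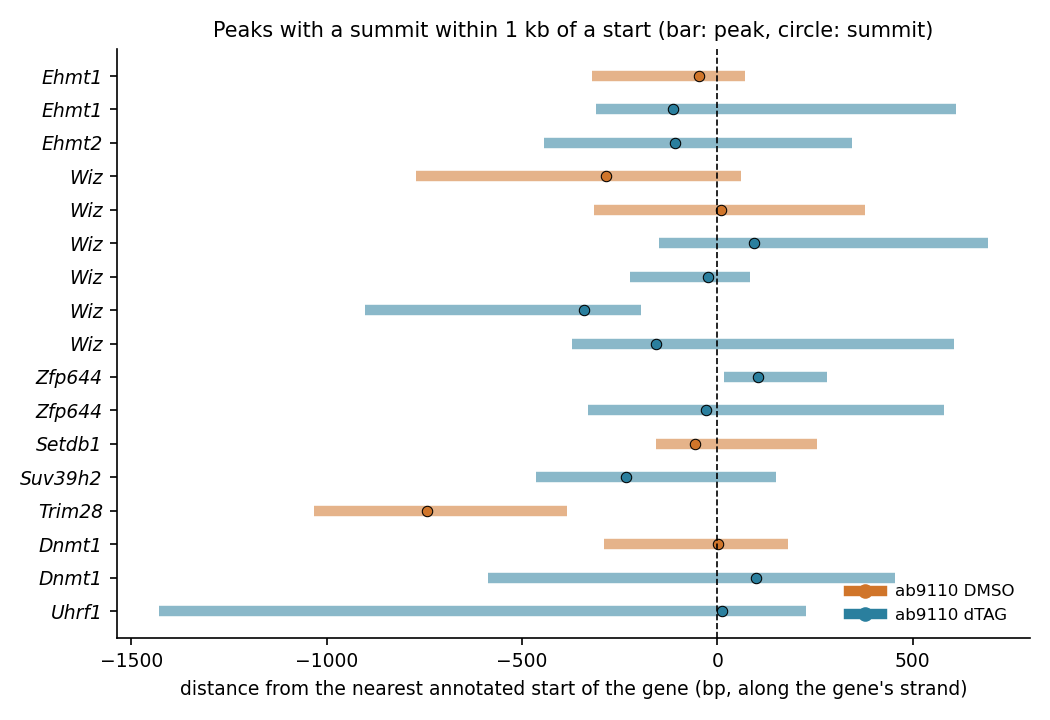
Position of each promoter peak relative to the nearest annotated start of its gene (bp along the strand of the gene); bars are peaks, circles are summits, orange is ab9110 DMSO and blue ab9110 dTAG. Of the 17 peaks, 6 were from DMSO and 11 from dTAG, and the Trim28 peak, 743 bp upstream, had the summit farthest from a start.

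Among the genes of H3K9me3, Setdb1 and Trim28 had a promoter peak in DMSO alone. The Setdb1 peak, chr3:95356947-95357359, had its summit 56 bp upstream of the start, in an exon of the noncoding gene Gm37500, with a fold of 3.32 and 17 fragments. The Trim28 peak, chr7:13023119-13023767, had its summit 743 bp upstream of the coding start, a fold of 3.17 and 19 fragments. When the DMSO fragments were thinned to the dTAG coverage, the chance of a call was 38.9% at Setdb1 and 42.5% at Trim28, so the loss of these calls cannot be told apart from the lower coverage. The highest DMSO fold in the Setdb1 window was at chr3:95370142-95370629 (4.18, 16 fragments), 13140 bp upstream of the gene. The same intergenic site was called after dTAG, at chr3:95370032-95370573 (3.53, 9 fragments). The highest dTAG fold, chr3:95314879-95315663 (3.99, 16 fragments), lay 122 bp from a start of Cers2, a ceramide synthase gene.

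Suv39h2 and Suv39h1 encode paralogous enzymes and differed in their peaks. Suv39h2 had 1 peak in its window in all lists together. It was chr2:3474268-3474882 after dTAG, 234 bp upstream of a coding start, with a fold of 6.59 and 14 fragments (percentile 96.4). Suv39h1, on chromosome X, had no promoter peak. Its strongest site was chrX:8050734-8051827 in DMSO (3.42, 20 fragments) and chrX:8050877-8051698 after dTAG (4.46, 12 fragments), beyond the 3′ end of the gene and close to the start of the noncoding gene Gm14820 (111 bp from the DMSO summit).

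The Trim28 window held the 1 C29F4 peak of all 10 genes, and this site was called in all 3 ChIP lists. The C29F4 peak, chr7:13014237-13014777, had a fold of 3.43 with 31 fragments. It overlapped the DMSO peak chr7:13013954-13015324, with a fold of 4.21 and 31 fragments, and the dTAG peak chr7:13013987-13014767, with a fold of 4.59 and 27 fragments. No input peak was called there. The site lay 9460 bp upstream of the coding start, in an intron of a noncoding Trim28 transcript. Relative to mean coverage, the summit held 8.52 times the fragments in the C29F4 list (Poisson interval 5.79 to 12.1). It held 14.7 times (10 to 20.9) in ab9110 DMSO and 22 times (14.5 to 32) in ab9110 dTAG. The ab9110 intervals overlapped, and a difference between treatments was not tested. Over the genes with a promoter called in both ab9110 lists, the median ratio of dTAG to DMSO was 1.37. The paper reports lower HA signal after EHMT2 depletion across all peaks found with EHMT2 present. That covers signal at all such peaks, also those not called after dTAG. The ratios here use only summits called in both ab9110 lists, so they are an unlike measure on a smaller set. The peak with the highest dTAG fold in the window, chr7:13033577-13035129 (4.77, 19 fragments), lay 3 bp from a start of Chmp2a. The 200 bases around the C29F4 summit, chr7:13014592-13014791 on the plus strand, are shown because no other site of these genes was called with both antibodies.
Trim28 upstream site: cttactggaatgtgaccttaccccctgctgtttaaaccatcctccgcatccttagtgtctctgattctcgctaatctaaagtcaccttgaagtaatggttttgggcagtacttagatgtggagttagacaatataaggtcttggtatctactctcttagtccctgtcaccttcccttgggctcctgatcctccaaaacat
This stretch was 44.5% GC with 2 CpGs and no soft-masked base, and none of the motifs matched it.

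**Figure D3:**
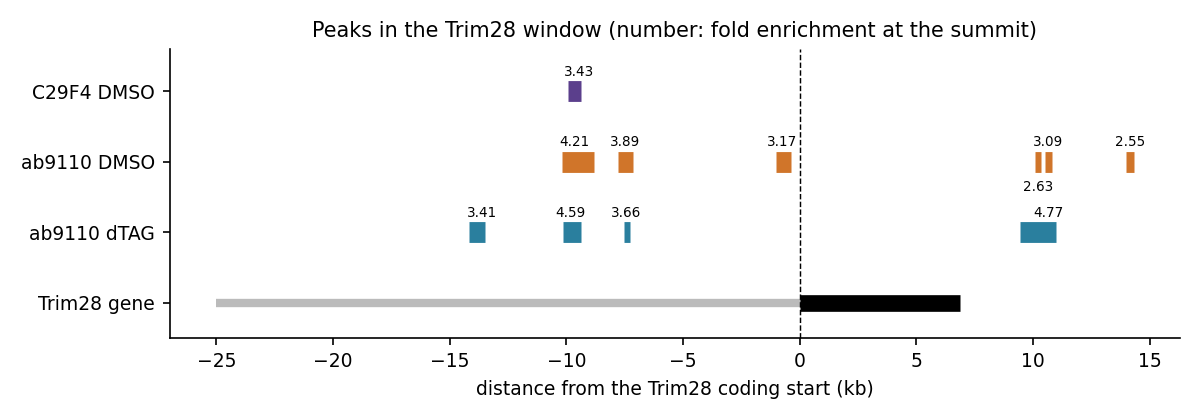
Peaks in the Trim28 window by distance from the coding start (kb) in the C29F4 DMSO, ab9110 DMSO and ab9110 dTAG lists; numbers are folds at the summit, the black bar runs from the coding start to the gene end and the grey bar is the part upstream covered by noncoding transcripts. The C29F4 peak of fold 3.43 lies over the DMSO peak of 4.21 and the dTAG peak of 4.59, and only the DMSO list has a peak near the coding start (3.17).

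The DNA methylation genes Dnmt1 and Uhrf1 both had a promoter peak after dTAG. At Dnmt1, the DMSO peak chr9:20952424-20952894 had its summit 1 bp inside a coding start, with a fold of 2.65 and 23 fragments. The dTAG peak chr9:20952389-20953433 overlapped it, with a fold of 4.77 and 20 fragments. The DMSO fold ranked at percentile 5.61 and the dTAG fold at percentile 81.6. The strongest DMSO peak of the Dnmt1 window by fold was chr9:20913675-20914086 (3.17, 13 fragments), in an intron and 324 bp from the start of Mir7081. The strongest dTAG peak by fold was chr9:20898244-20898643 (4.91, 17 fragments), 116 bp from a start of Eif3g, a translation initiation factor gene. At Uhrf1, the dTAG peak chr17:56302977-56304633 had a fold of 3.52 and 16 fragments (percentile 26.2), with the summit 11 bp inside a coding start. Its window held no DMSO promoter peak of Uhrf1. The highest DMSO fold there, chr17:56322040-56322240 (2.81, 13 fragments), lay near the 3′ end, and the highest dTAG fold, chr17:56325222-56325705 (4.12, 11 fragments), lay 551 bp from a start of Kdm4b, an H3K9 demethylase gene.

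Because fold depends on the local background of each library, promoter summits were also given as fragments over mean coverage. For Ehmt1 this was 10.4 (95% Poisson interval 6.54 to 15.8) in DMSO and 22.8 (15.2 to 33) after dTAG, a ratio of 2.19 (1.21 to 4.01). For Wiz it was 9.97 (6.17 to 15.2) and 16.3 (9.96 to 25.2), a ratio of 1.64 (0.841 to 3.17). For Dnmt1 it was 10.9 (6.92 to 16.4) and 16.3 (9.96 to 25.2), a ratio of 1.49 (0.778 to 2.84). The counting interval of the ratio was above 1 for Ehmt1 and included 1 for Wiz and Dnmt1. Higher values after dTAG were common to called promoters. Over the 3672 protein-coding genes called in both lists the median ratio was 1.37 (quartiles 1.14 and 1.64), and 86.1% of ratios were above 1. The ratios of Ehmt1, Wiz and Dnmt1 ranked at percentiles 96, 74.2 and 61.1 among those genes, and their intervals all included the median of 1.37. A peak has to pass the calling threshold in each library, and the dTAG threshold was set on lower coverage, so these ratios are descriptions of called peaks and not of all promoters.

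The promoters called after dTAG alone spread to both sides of the dTAG median by this measure. Zfp644 reached 17.9 times mean coverage (11.2 to 27.1), Uhrf1 13 (7.45 to 21.2), and Ehmt2 and Suv39h2 11.4 each (6.24 to 19.1), beside a median of 13 and an upper quartile of 16.3 over the 6996 called dTAG promoters. At the coverage of the DMSO library, a summit of the same height would have held 37.8 fragments at Zfp644, 27.5 at Uhrf1 and 24 at Ehmt2 and at Suv39h2. The Ehmt1, Wiz and Dnmt1 promoters were called in DMSO with 21 to 23 fragments. The promoters called after dTAG alone were chosen by that call, and this choice raises their dTAG heights. The scaled numbers therefore do not show whether a call in DMSO was to be expected. The DMSO background at the uncalled promoters is not in the lists, so the level there is not known beyond the absence of a call. The promoters called in DMSO alone were at 8.07 (4.7 to 12.9) for Setdb1 and 9.02 (5.43 to 14.1) for Trim28, both under the median of 9.49 over the 5510 called DMSO promoters.

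**Figure D4:**
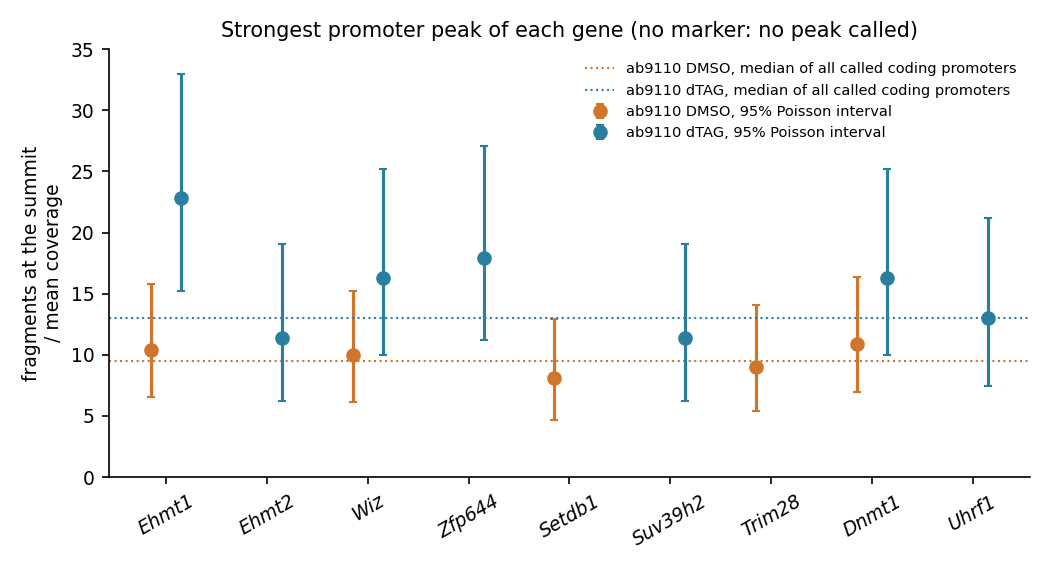
Fragments at the summit of the promoter peak with most fragments, divided by mean coverage, for each gene in ab9110 DMSO (orange) and ab9110 dTAG (blue), with 95% Poisson intervals; dotted lines are the medians over all called protein-coding promoters (9.49 and 13). Of the 3 genes called in both lists, Ehmt1 shows the widest gap, 10.4 against 22.8, and genes with a single marker were called in 1 list.

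The called DMSO summits were also thinned to the mean coverage of the dTAG library. The expected number of the 10 genes with a DMSO promoter peak was then 2.56 in place of 5, beside 7 after dTAG. Over all protein-coding genes the same thinning left 11.9% in place of 25.1%, beside 31.9% after dTAG. Thinning acts on called summits alone, so promoters without a DMSO call add nothing to these numbers, and the part of coverage in the difference between the lists was not tested.

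In the whole windows, the lists held 57 peaks, of which 1 was from C29F4, 25 from ab9110 DMSO, 31 from ab9110 dTAG and 0 from the input. Every gene had a window peak after dTAG (57.5% of all protein-coding genes had one) and 9 had one in DMSO (68.3% of all), with Suv39h2 as the exception. With C29F4, Trim28 alone had one (20.1% of all), and in the input no gene had one (6.86% of all). Windows were between 53.6 and 170 kb long, beside a median of 57.4 kb over all genes. Per 100 kb, the median of the members was 3.46 peaks in DMSO and 3.85 after dTAG, beside 1.72 and 0.917 over all windows. The windows differed widely among themselves, from 0 to 8.34 peaks per 100 kb in DMSO and from 0.589 to 9.29 after dTAG. Wiz had 6 DMSO and 7 dTAG peaks, Trim28 6 and 4, and Dnmt1 2 and 7.

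Window peaks were sorted by the kind of site. In DMSO, 6 of the 25 window peaks were promoter peaks of a member, 5 were at promoters of other coding genes, 3 at other annotated starts and 11 away from starts. After dTAG, the numbers were 11, 11, 1 and 8 of 31. Peaks at a start of any coding gene made up 44% of the DMSO window peaks (24.4 to 65.1%), beside 22.4% in the windows of all protein-coding genes, and 71% after dTAG (52 to 85.8%), beside 53%. The share was thus higher after dTAG over all genes too, and the intervals of the members overlapped between the lists. Median GC content was 65.4% in the DMSO and 65.7% in the dTAG promoter peaks of the members, and 45.6% and 47.9% in the peaks away from starts. Soft-masked bases made up a median of 41.2% of DMSO and 39% of dTAG peaks away from starts, and 4.96% and 7.34% of the members' promoter peaks.

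**Figure D5:**
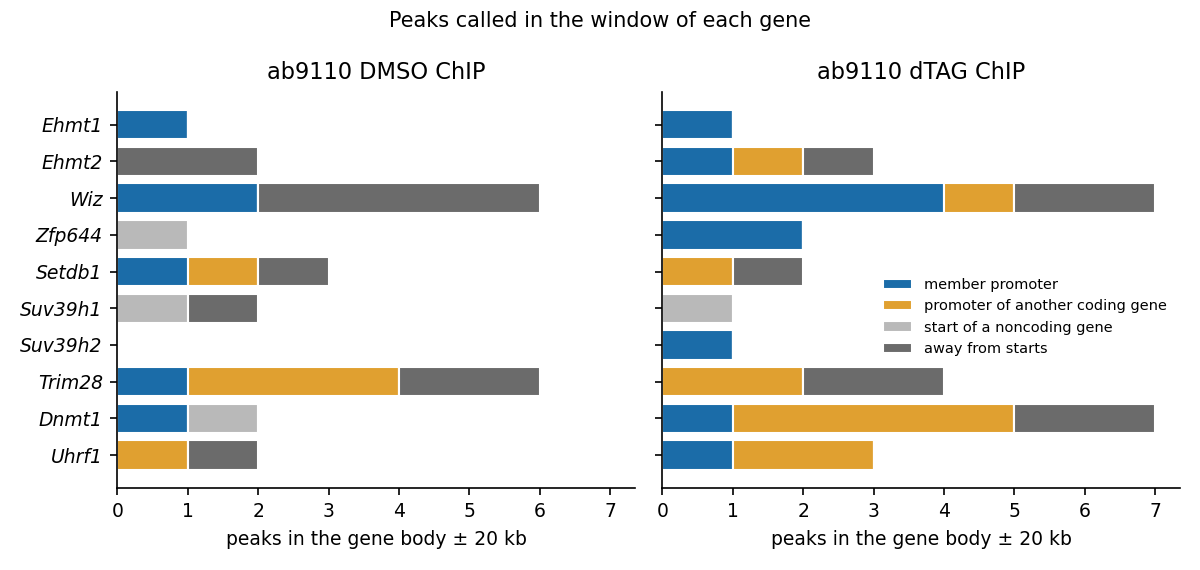
Number of ab9110 peaks in the window of each gene (gene body ± 20 kb), by the kind of site, in DMSO (left) and after dTAG (right). Suv39h2 has no DMSO peak, Wiz has 4 peaks at its own starts after dTAG, and 4 of the 7 dTAG peaks of Dnmt1 lie at promoters of other coding genes.

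Of the 25 DMSO window peaks, 14 overlapped a dTAG peak (56%, 34.9 to 75.6%), beside 23.9% of DMSO peaks in the windows of all protein-coding genes. Most of the 14 lay in the windows of Wiz and Trim28, and the interval treats neighbouring peaks as independent, so this share is no trait of the genes as a set. The DMSO peaks chr7:13034220-13034510 and chr7:13034683-13034977 at Chmp2a overlapped the same dTAG peak. Of the 31 dTAG window peaks, 12 overlapped a DMSO peak (38.7%, 21.8 to 57.8%), beside 45.6% over all genes. The 1 C29F4 peak overlapped a DMSO peak, as did 66.5% of C29F4 peaks in all windows. Away from starts, 7 of the 11 DMSO peaks overlapped a dTAG peak, among them both upstream Trim28 sites and 3 peaks within Wiz, 2 of which overlapped the same dTAG peak. The 11 DMSO peaks not called after dTAG lay in 8 windows, had 9 to 20 fragments, and had a chance of 6.62 to 52.2% each of being called at the dTAG coverage. The 14 that were also called had 12 to 31 fragments and a chance of 7.01 to 97.8%. Thinning alone would have kept 2.98 of the 11 and 6.71 of the 14.

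A wider list of 46 other genes of the same pathways was described in the same way. Their promoters were called with ab9110 for 27 genes in DMSO (58.7%, 43.2 to 73%) and 35 after dTAG (76.1%, 61.2 to 87.4%), with 23 in both, 12 after dTAG alone, 4 in DMSO alone (Dnmt3l, Zfp462, L3mbtl2 and Kdm4d) and 7 in neither. The members stood at 50% and 70% and all protein-coding genes at 25.1% and 31.9%. The Kdm4b peak in the Uhrf1 window is also 1 of these calls. Of the 38 genes of the wider list with RefSeq promoters, 29 were at or above the median promoter GC, by their most GC-rich promoter. Among all genes at or above that median, 33.4% were called in DMSO and 48.8% after dTAG. By role, 6 of 7 partners of SETDB1 and the HUSH complex were called in DMSO (42.1 to 99.6%) and 7 of 7 after dTAG (59 to 100%). Of the readers and HP1 proteins, 4 of 8 and 7 of 8 were called, of the EHMT partners 4 of 7 and 5 of 7, of the erasers 7 of 14 and 10 of 14, and of the other writers 4 of 7 in each list. Groups of 7 to 14 genes have wide intervals that overlap, so the roles cannot be ranked. The 3 highest dTAG folds were at Kdm3a (10.4), an H3K9 demethylase, and at Max (10) and Mga (9.57), whose products act with E2F6 and PCGF6 in a Polycomb complex.

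With C29F4, 4 of the 46 promoters were called (8.7%, 2.42 to 20.8%), beside 2.34% of all protein-coding genes. Only Phf8 remained when the summit had to lie within 500 bp of a start, the others being 668 bp (Kdm3a), 664 bp (Resf1) and 989 bp (Zfp42) away. Kdm3a had the highest fold of the 4, with a C29F4 fold of 13 (percentile 99.3) and ab9110 folds of 7.61 in DMSO and 10.4 after dTAG. Phf8, an H3K9 demethylase, had folds of 3.86, 3.9 and 3.43 in the same order. Resf1, a partner of SETDB1, had 3.54, 3.06 and 4.64. Zfp42, which encodes the pluripotency marker REX1, had 2.13, 4.12 and 3.95. All 4 promoters also had an ab9110 peak in DMSO and after dTAG, but not always at the same site. The Zfp42 peak of C29F4 overlapped another DMSO peak than the one whose fold is given, and the Resf1 peak of C29F4 overlapped no dTAG peak. In the input, the promoter of Setdb2 alone was called (4.55), and it had no promoter peak in a ChIP list.

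The promoters of the 10 genes were rich in GC and CpG. In the RefSeq promoters of GRCm38.p6, which run from 250 bases before to 50 after each start, all 10 genes matched with 19 promoters. Taking the most GC-rich promoter of each gene, GC content was between 55.3% (Setdb1) and 82.7% (Ehmt2) with a median of 69%, beside 57.7% over 16522 protein-coding genes. The ratio of observed to expected CpG had a median of 0.9, beside 0.621 over all. The members had 19 promoters for 10 genes, and all genes 20150 for 16522. Taking the most GC-rich promoter can therefore raise the GC of the members more than that of all genes. GC content moved with the calls across all genes. Among genes at or above the median GC, 48.8% were called after dTAG and 33.4% in DMSO, and below it 17.3% and 18.5%. Of the 10 genes, 9 were above the median, all but Setdb1. Setdb1 was called in DMSO and not after dTAG, as was Trim28 with 64% GC, and Suv39h1 with 71% had no promoter peak. The part of GC content in the calls of these genes was not tested.

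The motifs were searched by their letters on both strands. GC boxes (GGGCGG) were in 14 of the 19 promoters (73.7%), at least 1 for each of the 10 genes, beside 47.8% of all 20150 promoters. The YY1 letters ATGGCGG were in 5 of 19 (26.3%), at Ehmt2, Suv39h1, Suv39h2 and Wiz, beside 5.38% of all. CCAAT was in 9 of 19 (47.4%, beside 37.8%), the ETS letters CCGGAAG in 1 (Setdb1, 5.26% beside 11.9%), TGACGTCA of CREB factors in 1 (Suv39h2, 5.26% beside 2.31%) and the palindromic NRF1 motif in 2 promoters of Dnmt1 (10.5% beside 1.38%). CCAAT and ATGGCGG adjoin without overlap upstream of Wiz. A match of letters is a description and does not show that a factor binds there.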

How the data were processed

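Peak lists of HA ChIP-seq and input were compared, grouped by the antibody and treatment in their labels. The members and the gene lists were chosen with earlier results of these data known. After trimming, the authors aligned reads to mm10 with STAR (2.7.10) so that multimapping reads were kept at 1 location. They removed duplicates with Picard (2.26.0) and blacklisted regions. By the methods, peaks were called with MACS2 (2.2.6) at a p cutoff of 0.05 and then filtered to q under 0.05 (versions from the methods and the submitters' processing notes). Use of a control library in calling is not given in the sources used here. The C29F4 list was called on merged samples. Each deposited list gives a fold (the ratio of pileup to background at the summit), −log10 p and −log10 q, an offset of the summit and an integer score. The deposited score was 10 times −log10 q in the C29F4 list and 10 times −log10 p in the ab9110 lists, and was not used further. Whether all lists were called with the same settings is therefore not known. Peaks of the single C29F4 samples and of the input from DMSO-treated cells were not analysed here.

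Summit pileup and background were solved from fold, (pileup + 1) / (background + 1), and the Poisson p, to within 0.001 on the −log10 scale (100% of the peaks). The lowest background was taken as mean coverage. DMSO summits were thinned binomially to 58.2% and kept at the lowest −log10 p of the dTAG list, 4.28. Each gene's window was the gene body with 20 kb flanks, a window peak overlapped it by at least 1 bp, and promoter peaks had the summit within 1 kb of any annotated start (GENCODE M21). The computations were tested on simulated data. Shares have exact 95% binomial and fragments 95% Poisson intervals (scipy 1.17.1). Intervals for shares of peaks treat neighbouring peaks of a gene as independent. The rule for named peaks took every promoter peak of a member, every C29F4 and input peak, and for each member the DMSO and dTAG peak of highest fold. The intronic Ehmt2 site called in both lists, and the named genes called in DMSO alone on the wider list, were chosen after their values were seen. Of the wider list, all 46 genes matched by symbol (Tasor as Fam208a).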

Additional observations from a re-analysis of the deposited data

How the results depend on the processing

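No paired analysis was possible because C29F4 samples numbered 4 and 5 were merged into 1 list and no result comes from a test. No replicate could be left out for the same reason. Of 120 recomputed values, 101 stayed within 1.5 times the count or within the interval of the share, and 19 moved. Those that stayed include counts of 0 with C29F4 and in the input, which stricter choices cannot change. They also include the overlap share of the C29F4 window peaks, whose interval of 2.5 to 100% few values could leave. The 101 values are thus no measure of how stable the ab9110 counts are. Counting starts of protein-coding transcripts alone was added after seeing the data and moved no count. Each alternative named below adds or removes peaks or starts by construction. With the 5′ end of each gene alone, 3 DMSO member promoters were left, without Trim28 and Dnmt1. With DMSO thinned to the dTAG coverage, the expected numbers were 2.56 member promoters in DMSO, 1.74 called in both lists, 9.68 window peaks and 5.58 genes with a window peak in DMSO, and 21.3% of dTAG window peaks overlapped a DMSO peak. With q under 0.01, 15 DMSO window peaks and 0 wider-list promoters in the input were left. With q under 0.001, these were 12 and 0, with 13 dTAG window peaks, 22 wider-list promoters after dTAG, and 33.3% of DMSO window peaks overlapping a dTAG peak. Without flanks, 16 DMSO and 17 dTAG window peaks were left. With 50 kb flanks, there were 42 DMSO window peaks, and 3 C29F4 peaks in the windows of 3 genes. With starts counted within 500 bp, 1 wider-list promoter was called with C29F4.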
